A study of Mus musculus with 9 samples.

Results

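The Hox genes encode homeodomain transcription factors and lie in 4 clusters, Hoxa, Hoxb, Hoxc and Hoxd, on separate mouse chromosomes. All protein-coding genes of the mm9 annotation whose symbol was Hoxa, Hoxb, Hoxc or Hoxd followed by a number were taken, which gave 39 genes of 22284, with 11 in Hoxa, 10 in Hoxb, 9 in Hoxc and 9 in Hoxd. The clusters arose by duplication of an ancestral array, so that genes with the same number in different clusters are paralogs, and low-numbered (anterior) genes are used nearer the head of the embryo than high-numbered (posterior) ones. In haematopoiesis, genes of the Hoxa and Hoxb clusters are known for their use in stem and progenitor cells and for their decline as cells mature, and Hox genes that are off are typically held under Polycomb repression over CpG-rich DNA. H3K27ac, an acetylation of histone H3 found at active promoters and enhancers, opposes the Polycomb mark at the same lysine.

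H3K27ac ChIP-seq was performed on naive CD8+ T cells sorted from the spleens of young adult C57BL/6-background mice as GFP+ TCRbeta+ CD62Lhi CD44lo-med cells. The WT mice were hCD2-Cre+ Rosa26GFP Tcf7+/+ Lef1+/+ (4 H3K27ac samples), and the dKO mice were hCD2-Cre+ Rosa26GFP Tcf7fl/fl Lef1fl/fl (3 samples), with 1 input sample per genotype. Tcf7 and Lef1 encode Tcf1 and Lef1, HMG-box factors of the T cell lineage. Both genotypes thus carried the Cre transgene, which acts mostly in peripheral T cells and does not excise in every cell, and the GFP reporter that marked the cells in which Cre had acted. The comparison addressed where the mark at Hox loci differed once Tcf1 and Lef1 were lost from mature cells.

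The authors pooled the samples of a genotype and called islands, that is, stretches of enriched signal, on each pool, so that each genotype had 1 island list and no replicate value. The WT list held 65563 islands with 82668007 counts and the dKO list 82213 islands with 57665047 counts. Log2 ratios below are dKO to WT, scaled to these totals, and counts per kb are unscaled. Their 95% exact intervals cover counting error only and, because of the pooling, no spread between mice. PCR copies of a molecule cannot be told from separate molecules, so the intervals may be too narrow even for that. A ratio of at least 1.5 in either direction is called lower or higher, with no test of the difference between genotypes. A place without an island in a list has no count there, so no fold was computed for a region with an island in 1 list only. The ratio of a whole cluster or gene sums all islands over it in each list. Islands found in 1 list only therefore enter that ratio on 1 side. In a bulk population fewer marked cells and less mark per cell cannot be told apart.

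All 9 naive CD8+ T cell markers examined carried islands in both lists, a state found at 65.4% of all protein-coding genes. At the targeted genes, Tcf7 had 50113 WT and 20781 dKO counts (log2 ratio -0.75) and Lef1 55155 and 28957 (-0.41), although islands over a whole gene do not measure the excision of its floxed exons. Islands also lay over 4 of 4 B cell, 4 of 4 myeloid, 2 of 2 CD4 T cell, 1 of 2 NK cell, 2 of 3 erythroid and 4 of 5 haematopoietic progenitor markers in both lists, beside the same 65.4% of all genes. None lay at Ncr1, Hbb-b1 or Gata2, and the part of other cells in the Hox results was not tested. The sexes of the pooled mice moved with genotype in the lists. Xist, the RNA of the inactive X chromosome, had 3 islands with 2017 counts in WT and none in dKO, while the Y-linked genes Ddx3y, Eif2s3y, Kdm5d and Uty each had 1 island in dKO, of 241 to 520 counts, and none in WT. Sex and genotype therefore cannot be told apart here. The Hox clusters lie on autosomes.

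H3K27ac islands were less common at Hox genes than at protein-coding genes at large, and they were concentrated in Hoxa and Hoxb. Over the gene and 1 kb either side, 18 of 39 Hox genes (46.2%) had a WT island, against 67.4% of all protein-coding genes. In the dKO list 15 did (38.5%), against 67.9%. Islands were present in both lists at 13 Hox genes (33.3%), against 65.4% of all genes, and in neither at 19 (48.7%), against 30.1%. Within 1 kb of the annotated gene start alone, 16 Hox genes had a WT island (background 61.0%) and 12 a dKO island (background 61.2%). The 88 other homeobox genes, which lie outside the clusters, had islands less often still, at 30 genes (34.1%) in WT and 28 (31.8%) in dKO.

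**Figure D1:**
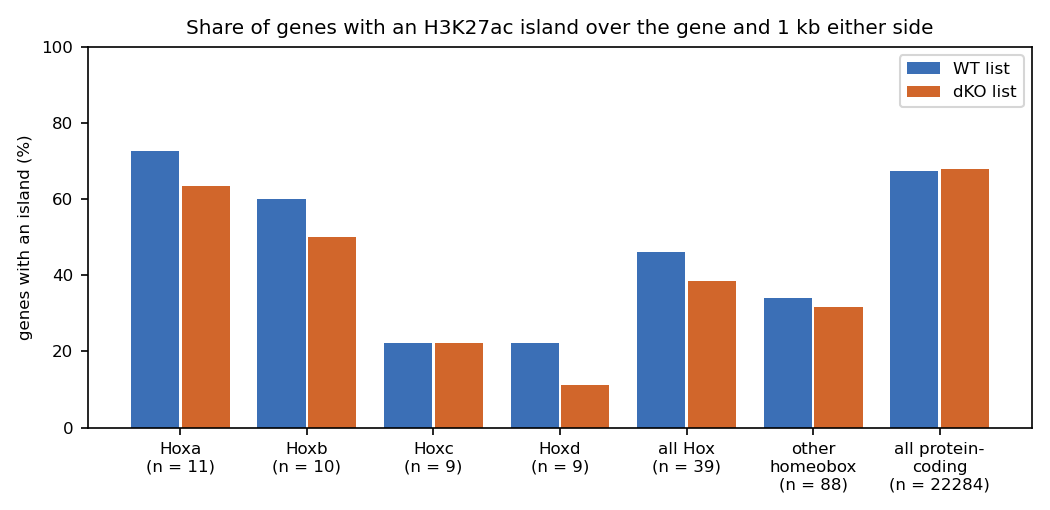
Share of genes (%) with an H3K27ac island over the gene and 1 kb either side, in the WT and dKO lists, for each Hox cluster, all 39 Hox genes, 88 other homeobox genes and all 22284 protein-coding genes. Hoxa (72.7% in WT, 63.6% in dKO) stood near all genes (67.4% and 67.9%), and Hoxc (22.2% in both) and Hoxd (22.2% and 11.1%) stood far below.

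By cluster, 8 of 11 Hoxa genes, 6 of 10 Hoxb genes, 2 of 9 Hoxc genes and 2 of 9 Hoxd genes had a WT island, and 7, 5, 2 and 1 had a dKO island. By position in the body plan, islands in WT and dKO lay over 5 and 3 of the 8 anterior genes (groups 1 to 3), over 8 and 8 of the 15 central genes (groups 4 to 8), and over 5 and 4 of the 16 posterior genes (groups 9 to 13). Group 6 was the paralog group in which every member, Hoxa6, Hoxb6 and Hoxc6, had islands in both lists. None of the 2 genes of group 12 or the 4 genes of group 13 had an island in either list. Those genes pattern the ends of the limbs and the caudal body. The genes with no island were Hoxa2, Hoxa5, Hoxa13, Hoxb3, Hoxb13, Hoxc4, Hoxc5, Hoxc8, Hoxc10, Hoxc11, Hoxc12, Hoxc13, Hoxd1, Hoxd4, Hoxd9, Hoxd10, Hoxd11, Hoxd12 and Hoxd13.

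**Figure D2:**
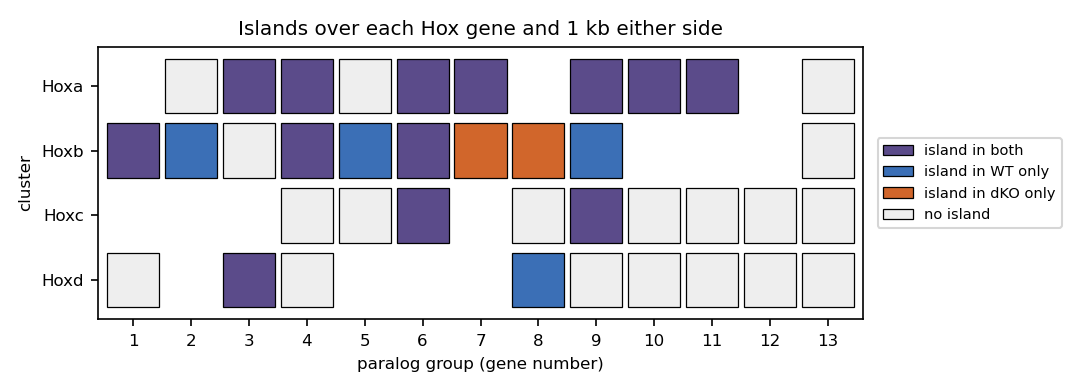
Each box is 1 of 38 Hox genes, by cluster (vertical) and paralog group (horizontal), coloured by whether islands over the gene and 1 kb either side were in both lists (13 genes), WT only (4), dKO only (2) or neither (19). No box of groups 12 and 13 is filled.

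Islands in 1 list alone were found at 7 Hox genes. Those in WT only (5 of 39, 12.8%, against 1.98% of all genes) included Hoxb2, which acts in the hindbrain, Hoxb5, Hoxb9, which acts in rib patterning, and Hoxd8. Those in dKO only were the neighbours Hoxb7 and Hoxb8 (5.13%, against 2.45%), both through the same island of 136 counts. Among the 88 other homeobox genes, 6.82% had islands in WT only and 4.55% in dKO only, so shares above those of all genes were not particular to Hox genes. Counted over regions, the WT-only share also stood above its background and the dKO-only share stood below it. Of 23 Hox regions with a WT island, 6 (26.1%) had no dKO island, against 17.8% of all such regions, and of 21 with a dKO island, 4 (19.0%) had no WT island, against 32.2%. Here a region joins islands of the 2 lists that share at least 1 bp.

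The WT-only islands at these genes and within Hoxc9 held from 216 counts (Hoxd8) to 605 (Hoxb9). The Hoxb9 island, of 4.2 kb over the gene start, had 144.0 counts per kb. The islands at Hoxb2, Hoxb5 and within Hoxc9 held 344, 337 and 505 counts. The 4 dKO-only islands lay at Hoxa6 (237 counts), Hoxa9 (91), the Hoxb7 and Hoxb8 pair (136) and between Hoxb9 and Hoxb13 (76). That at Hoxa6 held an annotated start within the gene. Whether islands seen in 1 list lay just under the calling limit in the other was not tested.

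The Hoxa cluster, at chr6:52105366-52210874 (105.5 kb), held as many islands in dKO as in WT, 9 in each list, with 5264 counts in WT and 3635 in dKO, and the log2 ratio was -0.015 (95% interval -0.076 to 0.047), a value whose sign turned to above 0 when the lists were scaled to their shared regions (0.056). Islands covered 22.4% of the span in WT and 25.0% in dKO, against 16.3% and 17.6% of the sequenced bases of chromosome 6. The Hoxb cluster, at chr11:96055630-96229570 (173.9 kb), held 11 and 9 islands with 5069 and 2606 counts (log2 ratio -0.44, -0.51 to -0.37). Its coverage went from 16.8% to 13.2%, below the 23.8% and 27.1% of chromosome 11.

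The Hoxc and Hoxd clusters held few islands in WT and fewer in dKO. Hoxc, at chr15:102751534-102867274 (115.7 kb), held 3 islands with 1885 counts in WT and 2 with 478 in dKO (ratio -1.46 on the log2 scale, -1.61 to -1.31), and the covered share was 7.95% and 2.94%, against 17.8% and 19.5% of chromosome 15. Hoxd, at chr2:74506367-74603200 (96.83 kb), held 2 islands with 1170 counts in WT and 1 with 151 in dKO (-2.43, -2.69 to -2.19), and the covered share was 8.26% and 1.24%, against 18.3% and 20.3% of chromosome 2. By counts per covered kb the log2 ratios were -0.10 in Hoxb, -0.024 in Hoxc and 0.30 in Hoxd, each nearer 0 than by counts, whereas that of Hoxa was -0.18 and thus farther from 0. The lower counts of Hoxc and Hoxd thus went with less DNA under islands. Islands of 1 list are part of these cluster ratios. In Hoxb they were WT-only islands of 605, 344 and 337 counts and dKO-only islands of 136 and 76. In Hoxc and Hoxd they were WT-only islands of 505 and 216 counts. Only stretches above the calling limit have counts, so density over the same DNA could not be compared between the lists.

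**Figure D3:**
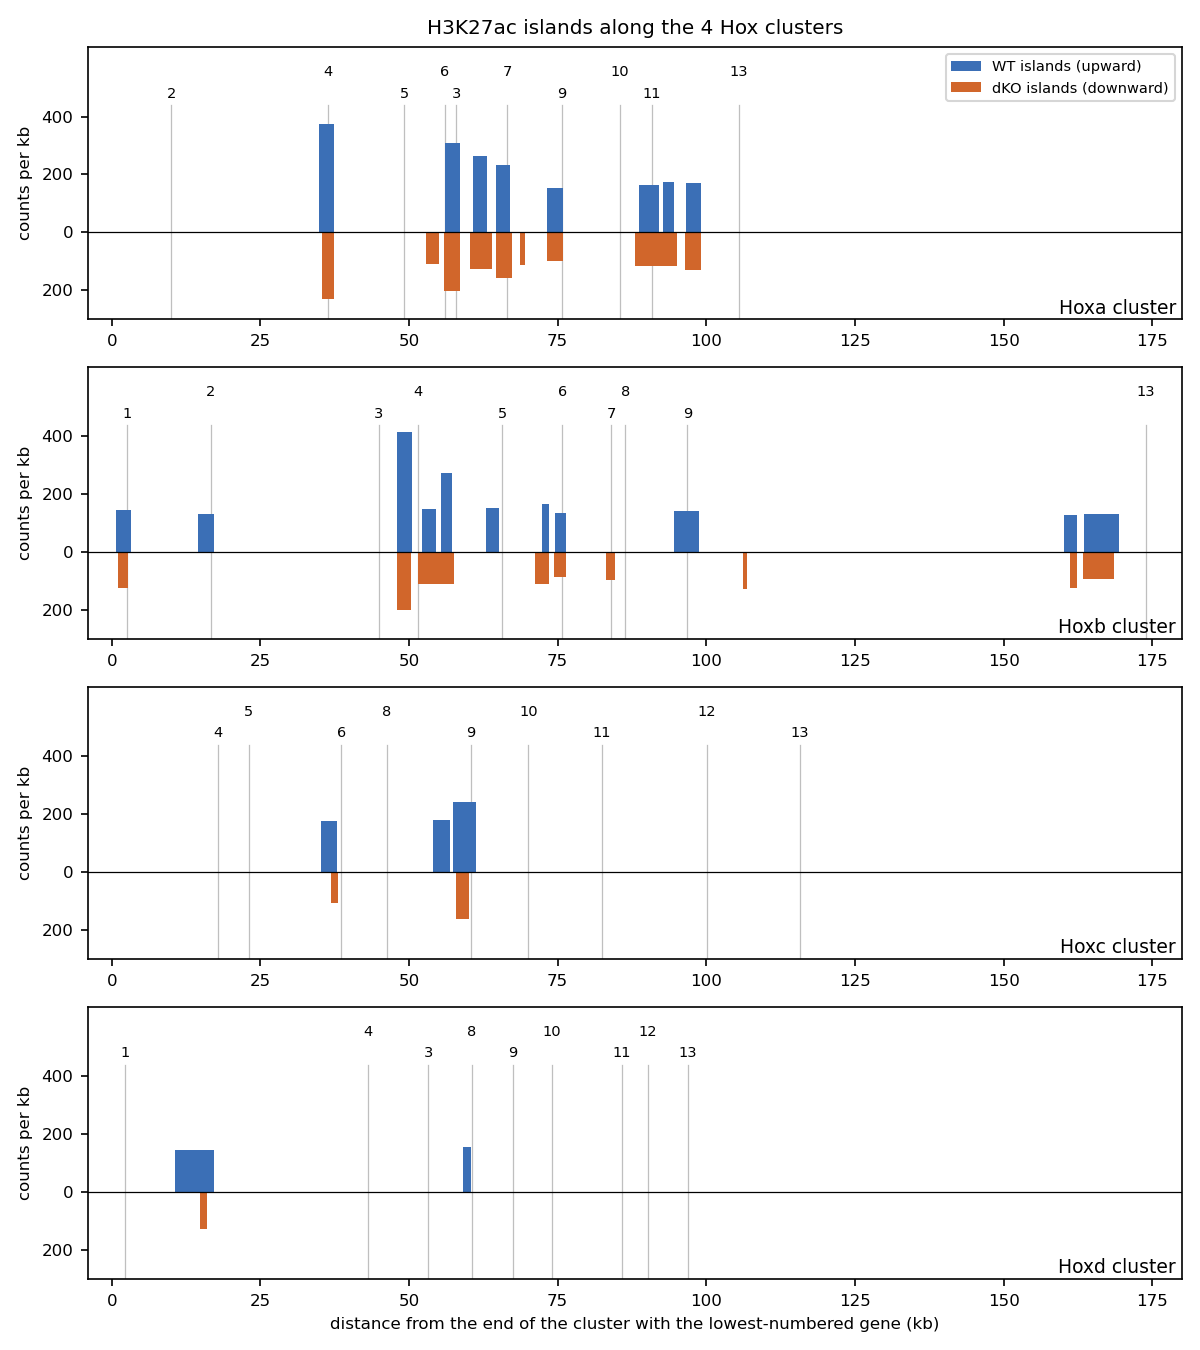
Islands along the 4 clusters, for 38 Hox genes, with the distance in kb from the end with the lowest-numbered gene on the horizontal axis and the unscaled counts per kb on the vertical axis, WT upward and dKO downward. Grey lines with numbers mark the annotated 5′ ends of the genes, and the tallest WT bars are those by Hoxb4 (413.8 counts per kb) and Hoxa4 (373.1).

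The WT islands of highest density lay at paralogs of group 4. The island within Hoxb4 (chr11:96179001-96181600), a gene known for expanding haematopoietic stem cells when overexpressed, had 1076 counts in WT and 478 in dKO, that is, 413.8 and 199.2 counts per kb. Its log2 ratio was -0.65 by counts (-0.81 to -0.49) and -0.54 per kb. The island at the start of Hoxa4 (chr6:52140201-52142800) had 970 and 458 counts, or 373.1 and 229.0 per kb, with log2 ratios of -0.56 (-0.73 to -0.40) and -0.18. Among all islands of their list these stood at the 94.0 and 92.6 percentiles of density in WT and at the 92.7 and 94.9 percentiles in dKO, so both stayed in the upper range of each list although their scaled counts were lower in dKO. Their paralogs Hoxc4 and Hoxd4 had no island.

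At the remaining Hoxa genes the log2 ratios of the shared regions lay between -0.15 and 0.34. The region over the starts of Hoxa6 and of the long Hoxa3 gene record (Hoxa3 is required to form the thymus) had 803 and 564 counts (log2 ratio 0.010). Hoxa7, a target of MLL fusion proteins in leukaemia, had a region within the gene of 582 and 483 counts (0.25, 0.074 to 0.43), which also held an annotated start. A region at its 5′ end had 559 and 411 (0.076). The former was wider in dKO, 3.8 kb against 2.2 kb, and its ratio per kb was -0.54. Hoxa9 is the Hox gene best known for its use in haematopoietic progenitors and myeloid leukaemia. The region at the annotated 5′ end of its record had 402 and 253 counts (-0.15, -0.38 to 0.082), and it also reached the window of Hoxa10. Another annotated Hoxa9 start, 1350 bp from the dKO-only island, lay in no island. At Hoxa11, a gene of the forearm and kidney, WT islands of 558 and 351 counts faced a dKO island of 805 counts that spanned both (0.34, 0.21 to 0.48). Because only the former WT island reached the Hoxa11 window, the ratio over that window was 1.05, the 1 Hox gene called higher, and this value rests on the border of the window. A further region 5588 bp beyond the Hoxa11 start had 406 and 333 counts (0.23, 0.020 to 0.45).

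In Hoxb, the start of Hoxb1, a hindbrain gene, had 353 and 219 counts (-0.17, -0.42 to 0.078). The start of Hoxb6 had 245 and 169 (-0.016, -0.31 to 0.27). A further island within Hoxb6 had 200 counts over 1.2 kb in WT and 263 over 2.4 kb in dKO (0.91 by counts and -0.085 per kb). Upstream of Hoxb4, WT islands of 494 and 359 counts were a single dKO island of 646 counts (0.12, -0.031 to 0.27; -0.40 per kb). In the long interval between Hoxb9 and Hoxb13, which holds no other Hox gene, regions 4571 and 11571 bp from the start of Hoxb13, a prostate and tail gene, had 776 and 473 counts (-0.19) and 280 and 146 counts (-0.42).

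In Hoxc and Hoxd the shared islands were shorter in dKO. At Hoxc9, a gene of thoracic identity, the region over the start had 919 counts over 3.8 kb in WT and 352 over 2.2 kb in dKO (-0.86, -1.05 to -0.69; -0.076 per kb). At Hoxc6, 461 counts over 2.6 kb faced 126 over 1.2 kb (-1.35, -1.65 to -1.06; -0.24 per kb). At the 3′ end of Hoxd3 and beyond it toward Hoxd1, a 6.6 kb island of 954 counts in WT faced a 1.2 kb island of 151 in dKO (-2.14, -2.40 to -1.89; 0.32 per kb). All 3 were lower by counts and none was called per kb.

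Over the clusters, 17 regions had islands in both lists. By counts 4 of them were called lower in dKO (background 14.6%) and 1 higher (background 11.1%). Per kb none was called in either direction (background 4.51% lower and 1.17% higher). The median log2 ratio was -0.15, beside -0.073 over all 45322 shared regions, and 10 of the 17 lay below 0, beside 56.6% of all. Per kb the median was -0.085, beside -0.020. Over the 13 Hox genes with islands in both lists, 3 were called lower (Hoxc6, Hoxc9 and Hoxd3) and 1 higher (Hoxa11), against a background of 14.6% in each direction. The Hoxd3 call rests on the border of its window, of which the dKO island covered 0.342%. With the gene body alone 2 genes were called lower. Per kb none was called (background 14.6% lower and 1.26% higher). The median over these genes was 0.026, beside -0.079 for all genes, and -0.15 per kb, beside -0.17.

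**Figure D4:**
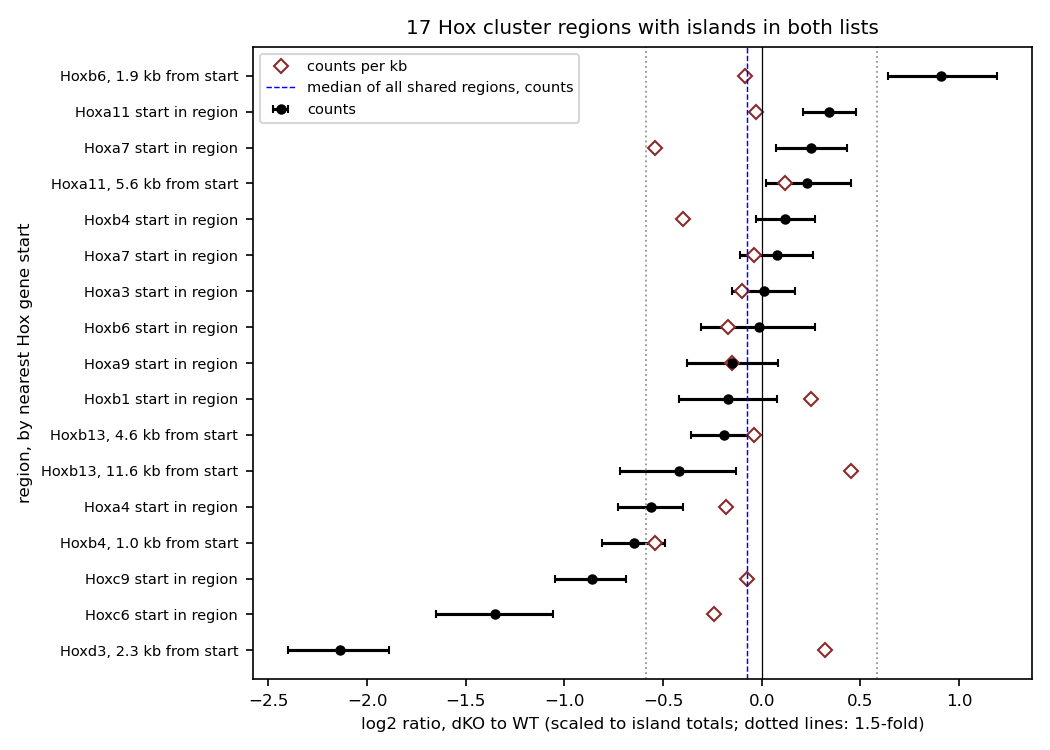
Log2 dKO to WT ratio of the 17 Hox cluster regions with islands in both lists, by counts (filled, with 95% counting intervals) and by counts per kb (open), on a horizontal log2 axis with dotted lines at 1.5-fold. The regions at Hoxd3 (-2.14), Hoxc6 (-1.35) and Hoxc9 (-0.86) lie at the bottom by counts, while every open symbol lies within the dotted lines, from -0.54 to 0.45.

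The lack of islands at many Hox genes did not go with a lack of CpG dinucleotides. In the 2 kb around the gene start, the CpG observed to expected ratio had a median of 0.552 over the 17 Hox genes with an island there in either list and 0.547 over the 22 without. Over all protein-coding genes these medians were 0.577 with an island and 0.219 without. The 88 other homeobox genes had a median of 0.623, and 77.3% of them had no island at the start, so this was not particular to Hox genes. A ratio of at least 0.6 was found at 15 Hox genes, of which 10 (66.7%) had no island at the start, whereas 13.1% of all genes with such a ratio had none. The 200 bases before 3 starts are shown because they set a marked CpG-rich start beside unmarked ones, with CpG in capitals.
Hoxa4, chr6:52141753-52141952, minus strand: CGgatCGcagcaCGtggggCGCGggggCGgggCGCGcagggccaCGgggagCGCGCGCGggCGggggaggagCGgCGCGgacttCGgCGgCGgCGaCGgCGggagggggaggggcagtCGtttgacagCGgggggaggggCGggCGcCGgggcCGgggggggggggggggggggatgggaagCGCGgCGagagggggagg
Hoxa13, chr6:52210875-52211074, minus strand: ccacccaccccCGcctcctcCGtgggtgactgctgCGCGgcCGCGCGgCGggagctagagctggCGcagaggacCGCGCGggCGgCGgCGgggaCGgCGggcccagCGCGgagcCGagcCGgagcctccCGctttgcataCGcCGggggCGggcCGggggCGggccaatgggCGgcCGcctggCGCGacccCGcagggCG
Hoxd13, chr2:74506167-74506366, plus strand: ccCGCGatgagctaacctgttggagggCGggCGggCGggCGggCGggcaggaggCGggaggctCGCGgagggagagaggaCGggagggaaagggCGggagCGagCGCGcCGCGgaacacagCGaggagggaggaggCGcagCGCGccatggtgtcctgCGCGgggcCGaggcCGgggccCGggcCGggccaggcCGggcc
The Hoxa4 stretch held 32 CpG and lay under an island in both lists. Those of Hoxa13 and Hoxd13 held 33 and 28 CpG and lay under none.

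**Figure D5:**
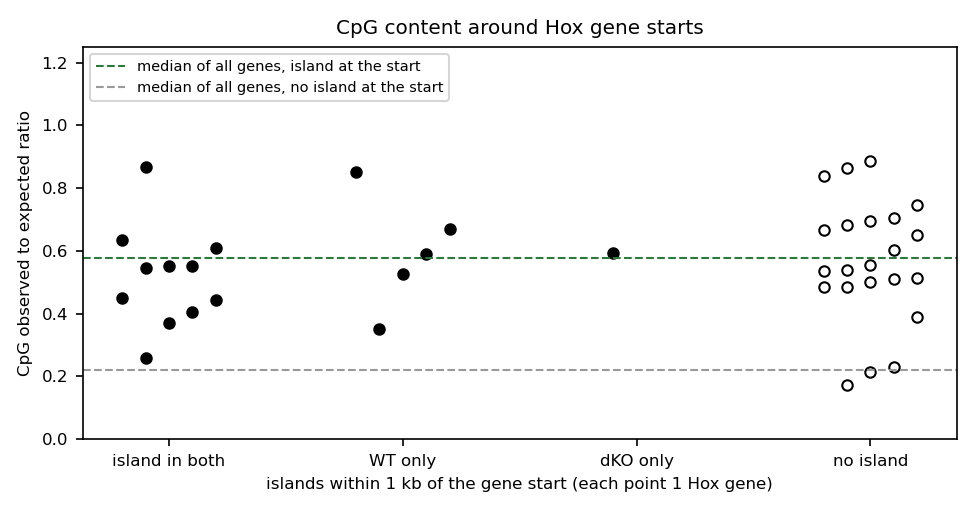
CpG observed to expected ratio of the 2 kb around the start of each Hox gene (1 point per gene), by whether an island lay within 1 kb of the start in both lists, WT only, dKO only or neither. Dashed lines are the medians of all protein-coding genes with (0.577) and without (0.219) such an island, and most Hox genes without an island lie well above the lower line.

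Tcf1 and Lef1 bind DNA with the core letters CTTTGAA or CTTTGAT, which were searched on both strands. At a given position only 1 of the 2 can match. The 2 kb around the start held a match at 23 of 39 Hox genes (59.0%), beside 48.4% of all protein-coding genes, and at 13 of the 17 with an island there (76.5%) and 10 of the 22 without (45.5%). Over all genes the shares were 45.3% with and 54.0% without an island. In the 27 Hox regions 36 matches were found, or 0.437 per kb, beside 0.402 per kb over all 76633 regions. A match was present in 18 Hox regions (66.7%), beside 74.1% of all regions. These were 12 of the 17 shared regions, 2 of the 6 WT-only and 4 of the 4 dKO-only regions. Matches per kb were 0.181 in the WT-only regions (3 matches), 0.477 in the shared regions (29) and 0.800 in the dKO-only regions (4). A match describes the letters and is not evidence of binding. Matches within the group 4 islands are shown with the core in capitals, since these were the densest Hox islands in WT and their counts were lower in dKO.
Hoxa4 region, chr6:52140910-52140946, minus strand: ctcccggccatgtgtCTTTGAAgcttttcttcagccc
Hoxa4 region, chr6:52142318-52142354, plus strand: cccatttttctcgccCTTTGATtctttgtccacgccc
Hoxb4 region, chr11:96180723-96180759, plus strand: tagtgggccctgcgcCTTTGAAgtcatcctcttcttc
The former Hoxa4 match lies in an intron of Hoxa4, the latter before its start within the long Hoxa3 record, and the match in the Hoxb4 island lies in an intron of Hoxb4. Directly before the start of Hoxd8, whose island was in WT only, the letters CTTTGAT occurred 2 times within 200 bases, outside the island itself.
Hoxd8, chr2:74542472-74542671, plus strand: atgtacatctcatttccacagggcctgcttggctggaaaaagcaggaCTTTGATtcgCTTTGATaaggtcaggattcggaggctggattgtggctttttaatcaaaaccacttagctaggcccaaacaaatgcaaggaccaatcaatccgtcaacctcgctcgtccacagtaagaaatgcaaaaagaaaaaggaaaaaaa

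The clusters also hold microRNA genes that target Hox transcripts. Mir196b, within the annotated Hoxa9 record, lay inside the island at the 5′ end of that record in both lists (154.6 counts per kb in WT and 97.31 in dKO). Mir10a lay 413 bp from the dense Hoxb4 island in WT, and in dKO 479 bp from the nearest island. Mir10b, Mir196a-1, Mir196a-2 and Mir615 lay from 2120 to 23007 bp away from the nearest island. The mature sequences (RefSeq, GRCm38.p6), with the seed of bases 2 to 8 in capitals, show that the marked gene and its neighbour by the densest island each share their seed with a paralog that lay in no island.
miR-196b-5p: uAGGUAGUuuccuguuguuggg
miR-196a-5p: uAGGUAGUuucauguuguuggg
miR-10a-5p: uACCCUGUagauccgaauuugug
miR-10b-5p: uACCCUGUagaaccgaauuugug

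The genes around the clusters were marked far more often than the Hox genes. Of the 5 nearest protein-coding gene records on each side of each cluster, 40 in all, 35 had islands in both lists (65.4% of all protein-coding genes did), 1 (Chn1) in WT only (1.98%) and 4 in neither (30.1%). Nearest to Hoxb on its low-number side, at 96.34 kb, Skap1, which encodes an adaptor of T cell receptor signalling, had 21457 and 19612 counts (log2 ratio 0.39). Nearest to Hoxa on its low-number side, at 142.8 kb, Skap2 had 1062 and 693 (-0.10). On the other sides of these clusters Evx1 and Ttll6 had no island. By Hoxd, the homeobox gene Evx2 had 600 and 312 counts (-0.42) and Mtx2, of the mitochondrial outer membrane, 1576 and 697 (-0.66). By Hoxc, the DNA repair gene Smug1 had 263 counts over 2 kb in WT and 1822 over 17 kb in dKO (3.31 by counts, 0.22 per kb), and Gm17649 had none. Islands covered 30.1% of the Smug1 window in WT and 39.8% in dKO. Most of the dKO island length thus lay beyond the window, and the count ratio rests on its border. The predicted gene Gm53, inside Hoxb, held the 76-count dKO-only island, which reached no Hox gene.

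All Polycomb and MLL-side regulators of Hox genes examined were marked in both lists, and the partners of HOX proteins about as often as genes at large. The 16 Polycomb genes had islands in both lists (65.4% of all genes did), with 1 called higher and 3 lower (background 14.6% each). The highest was Cbx2 (1.87 by counts, -0.011 per kb), followed by Cbx7 (0.32), and the lowest were Cbx8 (-0.88) and Bmi1 (-0.66). Cbx2 and Cbx8 shared a dKO island of 4206 counts but had separate WT islands of 1647 and 11082, so their opposite ratios rest on how WT islands were split. All 13 genes that favour Hox expression, such as those of the MLL complexes, had islands in both lists. Among them Kdm6b (0.23) and Dot1l (0.20) were highest and Kdm6a (-1.98) and Rbbp5 (-0.53) lowest. Kdm6a lies on the X chromosome and escapes its inactivation, and the sexes of the pools differed as given above. Of the 9 TALE cofactors, homeodomain proteins that bind DNA with HOX proteins, 6 (66.7%, against 65.4% of all genes) had islands in both lists, with Pbx3 lowest (-2.04; 1.22 per kb), then Pknox2 (-0.54), and Pbx2 (0.17) and Pknox1 (-0.052) highest. Meis1 and Meis2 had none. Of 13 homeobox genes related to the clusters, Gsx2 (-2.11), Cdx1 (-0.67), Evx2 (-0.42) and Gbx1 (0.16) had islands in both lists (30.8%, against 65.4% of all genes). Cdx2 (957 counts) and Meox1 (865) had them in WT only (15.4%, against 1.98%), and 7 in neither (53.8%, against 30.1%).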

How the data were processed

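H3K27ac ChIP-seq of 4 WT and 3 dKO samples of naive CD8+ T cells was analysed from the deposited island lists. Per the study's methods and the submitters' processing notes, the authors aligned reads to mm9 with Bowtie2 2.2.5, kept uniquely mapped reads, pooled the samples of a genotype and called islands with SICER 1.1 (window 200 bp, gap 400 bp, FDR 0.01). Duplicate removal is not stated. The deposited values are raw read counts per island, unscaled, so a count rises with island width and with depth, and the 2 totals (82668007 and 57665047) are of island reads, not of libraries. No values were given for the input samples. Since replicates were pooled, no test was possible and spread between mice could not be estimated.

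Genes came from GENCODE vM1 on NCBIM37, which is mm9. Records with the same symbol were joined (Hoxa3 has 2, giving 40 gene records for 39 genes). Starts in the lists were counted from 0 and are given from 1. Islands overlapping a gene and 1 kb either side by at least 1 bp were assigned whole to it, and islands of both lists sharing at least 1 bp formed regions. A cluster span ran from the outermost bases of its genes. Ratios were scaled to island totals, with exact binomial 95% intervals, and a ratio of 1.5 was called. The list total was also replaced by counts in shared regions and by the median ratio. Every Hox gene with an island is named with its values, except 1 that is not reported here, neighbours by rank, and other lists by their 2 highest and 2 lowest ratios. Names of older genes were matched through a RefSeq table of GRCm38.p6. The members and lists were chosen with earlier results of these data known. The sex-linked genes, the CpG ratio threshold of 0.6 and the sequences shown were chosen after the lists had been read. Python 3.11.15 and SciPy 1.17.1 were used. Island merging, overlap search and the ratio intervals were tested on simulated data, and the motif search and CpG ratio on short made-up sequences.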

Additional observations from a re-analysis of the deposited data

How the results depend on the processing

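No paired analysis was possible because the authors pooled the numbered samples of each genotype into 1 list, and for the same reason no sample could be left out in turn. Of 119 alternative values for 21 results, 79 moved by less than the limit for the result, 31 moved further and 9 changed sign. With a window of 5 kb either side, 20 Hox genes had islands in both lists, 11 had none, 3 were called higher and 6 lower, and the median log2 ratio was -0.26. That median, 0.026 as reported, was -0.016 around any annotated start, -0.15 with counts apportioned to the window and -0.15 per covered kb. Genes called higher numbered 2 around any annotated start, 2 under either other scaling and 2 with islands of at least 200 counts, where 1 was called lower and none had an island in dKO only (0). Per covered kb 0 were called higher and 0 lower (background 1.26% and 14.6%). For the other settings no share over all genes is given, so their counts cannot be set beside a background.

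The Hoxa ratio, close to 0, was 0.082 with 10 kb added to each end of the span, -0.24 with 50 kb, 0.031 with islands of at least 200 counts, -0.18 per covered kb, 0.056 scaled to shared regions and 0.058 scaled by the median ratio. The Hoxb ratio was -0.19 with 50 kb, -0.68 with islands of at least 200 counts, -0.10 per covered kb, and -0.37 under either other scaling. The Hoxc ratio was -1.82 with the stronger islands and -0.024 per covered kb. The Hoxd ratio was -3.03 with 10 kb, -1.42 with 50 kb and 0.30 per covered kb, and no dKO island of Hoxd reached 200 counts, so no ratio could be given there. Covered shares moved, with 10 kb added, to 18.8% for Hoxa in WT. With 50 kb they were 17.8% and 18.6% for Hoxa in WT and dKO, 12.4% for Hoxb in WT, and 4.26% and 1.58% for Hoxc. With the stronger islands they were 10.2% for Hoxb and 0% for Hoxd in dKO. The windows and spans with added sequence take in islands of neighbouring genes, and a measure per covered kb removes differences in island width. The cause of the other shifts was not tested. The Hoxc and Hoxd ratios stayed below 0 under every alternative by counts, and the dKO islands that the minimum of 200 counts removes held 76 to 169.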
